A study of Homo sapiens with 4 samples.

Results

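HSF1, HSF2, HSBP1, HSPB1, HSPB8, CRYAB, BAG3, DEDD2 and HSPB11 are 9 of the 58884 gene IDs measured in TPC-1 and B-CPAP, a pair of established human lines of papillary thyroid carcinoma. They were listed by name, with earlier results of these data known, as heat shock factors, a factor-binding protein, small heat shock proteins and genes named with them. RNA of each line was sequenced after culture in submerged flasks at 37 °C or 40 °C, with 1 library for each line and temperature, and the study's title puts the question as the effect of transient heat on thyroid cancer cells. The labels name no drug or genetic change. They give the length of the exposure as 15 min, 20 min and 24 h in different places, so the length cannot be stated. All 9 genes passed the filter of a mean of at least 1 TPM, a level scaled by gene length and by the total of the library, over the 4 libraries, as did 14912 IDs in all, of which 11824 were protein-coding.

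Heat shock factors are transcription factors that form trimers and bind arrays of the letters GAA and TTC, called heat shock elements, in front of chaperone genes. HSF1 is the main factor of the acute heat response and is set free from chaperones and modified as a protein, so that its activity need not follow its mRNA. Small heat shock proteins share an alpha-crystallin domain and hold unfolding proteins without using ATP. BAG3 joins HSPB8 to HSP70 and sends bound proteins to autophagy, a route known from muscle and from cancer cells under proteotoxic stress.

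The estimated depth was 20704722 to 24466576 reads per library. The share of TPM held by mitochondrial genes was 16.8% (37 °C) and 19.9% (40 °C) for TPC-1, against 22.0% and 23.9% for B-CPAP. Among markers of the thyroid follicular cell, PAX8 stood at 98.9 to 284.4 TPM and FOXE1 at 5.95 to 9.70 TPM in the 4 libraries, whereas NKX2-1 was listed at 0 in TPC-1 and stood at 7.90 to 8.60 TPM in B-CPAP. SLC5A5 was listed at 0 in every library, TSHR reached at most 0.0135 TPM and TG at most 0.746 TPM. The epithelial keratins KRT8 and KRT18 stood at 138.9 to 569.8 TPM. KRT7 was at 4.84 and 5.15 TPM in TPC-1, against 754.2 and 588.9 TPM in B-CPAP, while KRT19 reached at most 1.42 TPM, EPCAM 1.99 TPM and CDH1 0.0439 TPM. The 6 fibroblast markers had a summed level of 2.98 and 2.87 TPM in TPC-1, nearly all from COL1A1, against 33.9 and 42.1 TPM in B-CPAP, where COL1A2, COL3A1 and LUM were also above 5 TPM. The other 2 of the 6, DCN and PDGFRA, were under 1 TPM in every library. Leukocyte markers summed to 0.434 to 1.37 TPM, with PTPRC and CD3E at 0, and endothelial markers to 0.989 to 1.64 TPM. In such bulk RNA, fewer cells of a type and less RNA per cell cannot be told apart.

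RefSeq start sites (GRCh38.p14) were found for 7 of the 9 genes, at 10 starts, and not for HSF1 and CRYAB. The 250 bases before each start were searched for the paired units of a heat shock element. The letters were GAANNTTC and TTCNNGAA, each its own reverse complement, so that 1 search covers both strands, and the patterns may overlap by sharing a unit. HSPB1 and HSPB8 were the genes of the 7 with a match, both of GAANNTTC. Either pattern was found before 11.6% of all 35116 starts in the table, and 3 alternating units in a row before 0.441%. The windows of both genes are shown because they hold these matches, with HSPA1B and HSP90AA1, genes of inducible HSP70 and HSP90, set beside them for comparison. Each is written 5′ to 3′ on the strand of the gene, with the paired units in capitals.
HSPB1: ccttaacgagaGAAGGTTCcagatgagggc
HSPB8: tcatcacctccGAATATTCctgtgacagga
HSPA1B: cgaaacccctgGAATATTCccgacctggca
HSP90AA1: gggttcttccgGAAGGTTCgggaggcttct
The HSPB1 window is chr7:76302480-76302509 on the plus strand, outside the GENCODE 29 gene, with its units 182 to 175 bases before the start. The HSPB8 window is chr12:119178832-119178861 on the plus strand, with its units 88 to 81 bases before the RefSeq start and inside an exon of the longer GENCODE 29 gene. The HSPA1B window, chr6:31827622-31827651 on the plus strand and outside the GENCODE 29 gene, holds the same 8 capital letters as that of HSPB8. The HSP90AA1 window, chr14:102087109-102087138 on the minus strand, lies in an exon of the GENCODE 29 gene, holds the same 8 as that of HSPB1, and belongs to 3 alternating units in a row. Both comparison windows were picked from the matches of classical HSF1 targets. GAANNTTC leaves only the letters at N free, so the shared letters carry no weight. Of 20 classical HSF1 targets in the table, 14 had a match and 7 had 3 units in a row, against 2 and 0 of the 7 genes described here. These counts are per gene, over 36 starts for the targets and 10 for the 7 genes. The shares of 11.6% and 0.441% are per start and cannot be set directly beside them. A match describes letters in a window and does not show that a factor binds there.

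The order of the 9 genes by level was much the same in all libraries. TPM is scaled by length, so levels of different genes can be set side by side. HSPB1 was the highest in all 4 libraries, above 98.6 to 99.4% of the tested protein-coding genes, and BAG3 came next, above 89.1 to 94.3%. HSPB8 was above 86.9 to 89.4% and HSF1 above 82.6 to 90.6%. CRYAB was the lowest in all 4, above 3.26 to 19.9%. Neighbours in this order differed beyond their counting intervals with few exceptions. Those were DEDD2 and HSBP1 in TPC-1 at 37 °C, BAG3 and HSF1 in B-CPAP at 37 °C, HSPB11 and HSF2 in B-CPAP at 37 °C, and DEDD2, HSPB11 and HSF2 in B-CPAP at 40 °C. These intervals, and those of all ratios below, are exact 95% intervals from reads estimated from TPM. They cover counting error between libraries and leave out any spread between cultures, which 1 library per group cannot show.

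**Figure D1:**
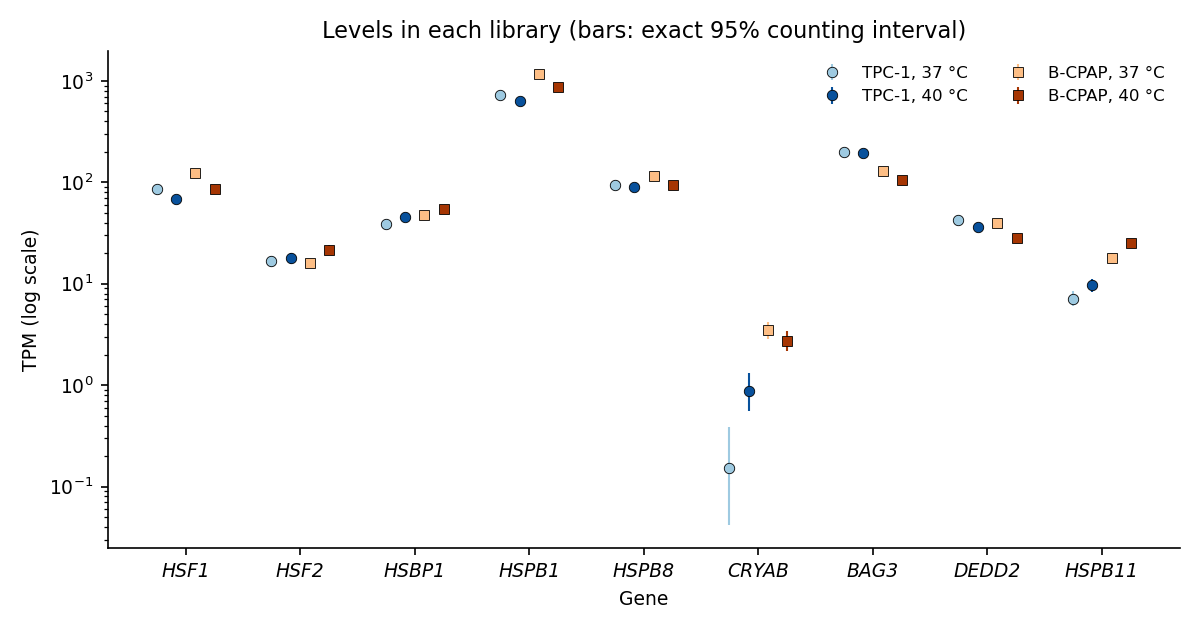
TPM of the 9 genes (log axis) in the 4 libraries, with circles for TPC-1 and squares for B-CPAP, pale symbols for 37 °C and dark symbols for 40 °C, and bars for exact 95% counting intervals. HSPB1 lies at the top at 635.3 to 1166 TPM and CRYAB at the bottom at 0.153 to 3.46 TPM.

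The genes went both ways between temperatures, with HSF1, HSPB1 and DEDD2 lower at 40 °C in both lines, HSBP1 and HSPB11 higher in both (HSBP1 in B-CPAP at -0.02 on the log2 scale once adjusted for GC content), and TPM ratios of 40 °C to 37 °C from 0.688 to 1.39 apart from CRYAB in TPC-1 at 5.76. In TPC-1, 4 of the 9 were higher at 40 °C and 5 lower, and in B-CPAP 3 were higher and 6 lower. Of all 14912 tested genes, 8104 were higher and 6334 lower in TPC-1, against 8682 and 5987 in B-CPAP. Genes were counted past a step of 0.32 on the log2(TPM + 1) scale, which is 25% higher or 20% lower. In TPC-1, HSPB11 and CRYAB were past that step upward, against a background of 14.9% of tested genes, and 0 were past it downward, against 6.32%. HSF1 lay just short of it in TPC-1, at -0.32. In B-CPAP, HSF2 and HSPB11 were past it upward, against a background of 30.2%, and HSF1, HSPB1 and DEDD2 downward, against 13.2%. No gene of the 9 differed 2-fold on that scale in either line, as 3.48% of tested genes did in TPC-1 and 3.9% in B-CPAP. The median log2 difference of the 9 was -0.04 for TPC-1 and -0.27 for B-CPAP, beside 0.03 and 0.09 over all tested genes.

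Counting error was small beside many of these differences. The interval of the TPM ratio excluded 1 for 6 of the 9 genes in TPC-1, against a background of 37.6% of tested genes and 44% of protein-coding ones. It did so for 8 of the 9 in B-CPAP, against 58.2% and 69.1%. These intervals narrow as reads rise, and the backgrounds were not matched for level. The shares therefore cannot be set directly beside each other. Over both lines, limma with the line as a block called 0 of the 14912 genes between temperatures after Benjamini-Hochberg adjustment (percent called 0), with a smallest adjusted p of 0.0871, so 0 of the 9 genes passed. At an unadjusted p under 0.05 it held 2905 genes (19.5%), among them HSF1, HSPB1, DEDD2 and HSPB11. That fit has 1 residual degree of freedom and sets a difference against how far the lines disagree about it, not against cultures. Where only genes with a mean of at least 5 TPM were fitted, limma called 867 of 10112 genes (8.57%), and HSF1 and HSPB1 were among them. Fitted to protein-coding genes alone, which was decided once the data had been seen, it called 1350 of 11824 (11.4%), again with HSF1 and HSPB1.

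**Figure D2:**
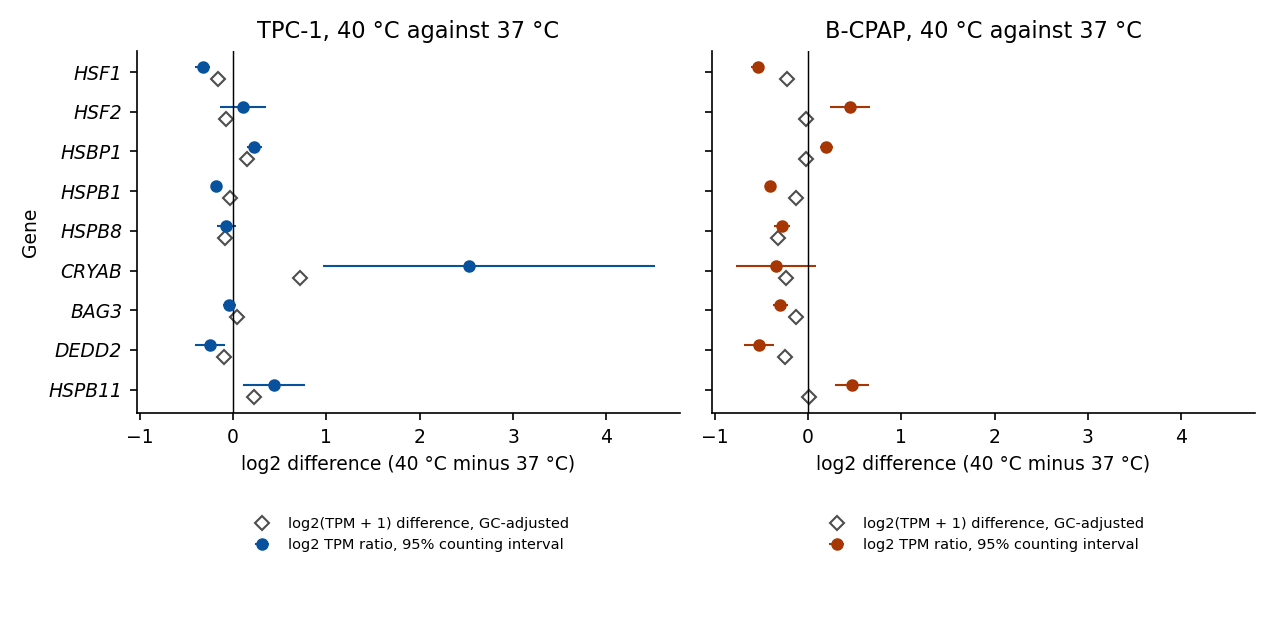
Log2 difference between 40 °C and 37 °C for each gene in TPC-1 (left) and B-CPAP (right), as filled circles for the TPM ratio with 95% counting intervals and open diamonds for the log2(TPM + 1) difference adjusted for GC content. In TPC-1 CRYAB has by far the widest interval, 1.96 to 23.0 as a ratio, and in B-CPAP the diamonds of HSF2, HSBP1 and HSPB11 lie near 0.

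HSF1 (ENSG00000185122), the main heat shock factor, had levels of 85.8 TPM (37 °C) and 68.5 TPM (40 °C) in TPC-1, against 124.9 and 86.0 TPM in B-CPAP. Pairs of levels are given here with 37 °C first, and pairs of ratios with TPC-1 first. HSF1 was lower at 40 °C in both lines, and the B-CPAP library at 40 °C came down to about the TPC-1 library at 37 °C. The TPM ratio of 40 °C to 37 °C was 0.798 (0.754 to 0.845) in TPC-1 and 0.688 (0.658 to 0.720) in B-CPAP. Over both lines the log2 difference was -0.43 with an SE of 0.095, and the limma adjusted p was 0.218, lower in 2 of 2 lines. It was 0.0241 where genes of at least 5 TPM were fitted and 0.0122 where protein-coding genes were. HSF1 shares 139 exon bases (2.62% of its exons) with DGAT1 on the opposite strand, which stood at 32.9 to 46.4 TPM, and the library kit does not mark strand.

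HSF2 (ENSG00000025156, chr6:122399546-122433119 on GRCh38, plus strand), a factor that can join HSF1 in mixed trimers and also acts in development, stood at 16.6 and 17.8 TPM in TPC-1, against 15.9 and 21.7 TPM in B-CPAP. The 3 libraries other than B-CPAP at 40 °C lay close together. The TPM ratio was 1.07 (0.905 to 1.27) in TPC-1, where the interval included 1, and 1.37 (1.18 to 1.59) in B-CPAP. The limma adjusted p over both lines was 0.331, with a log2 difference of 0.26 and higher values in 2 of 2 lines, and adjusted for GC content the log2 difference was -0.05. HSBP1 (ENSG00000230989, chr16:83807843-83819737, plus strand), a small coiled-coil protein that binds HSF trimers and restrains HSF1, stood at 38.7 and 45.4 TPM in TPC-1, against 47.6 and 54.5 TPM in B-CPAP. It was higher at 40 °C in both lines and by nearly the same ratio, 1.17 (1.11 to 1.24) and 1.15 (1.09 to 1.20). Its limma adjusted p was 0.291, with a log2 difference of 0.21. A processed pseudogene, HSBP1P2, was listed at 7.94 and 3.02 TPM in TPC-1, against 0 in B-CPAP, and how the counting split reads between such copies was not tested.

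The ratio of HSF1 to HSF2 within a library does not depend on the scaling of that library. In TPC-1 it was 5.17 (4.57 to 5.88) at 37 °C, then 3.85 (3.39 to 4.37) at 40 °C, against 7.87 (7.03 to 8.84) and 3.96 (3.57 to 4.40) in B-CPAP. HSF1 mRNA thus exceeded HSF2 mRNA in every library, and the lines were apart at 37 °C and overlapped at 40 °C. The ratio of HSF1 to HSBP1 was 2.22 (2.10 to 2.34) and 1.51 (1.42 to 1.60) in TPC-1, and 2.63 (2.51 to 2.74) and 1.58 (1.50 to 1.65) in B-CPAP. It was lower at 40 °C in both lines, by a factor of 0.680 for TPC-1 and 0.600 for B-CPAP. The 3 genes differ in the GC content of their exons, at 65.3% for HSF1, 40.4% for HSF2 and 45.9% for HSBP1, and the part of GC content in these ratios was not tested apart from the adjusted differences given below.

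**Figure D3:**
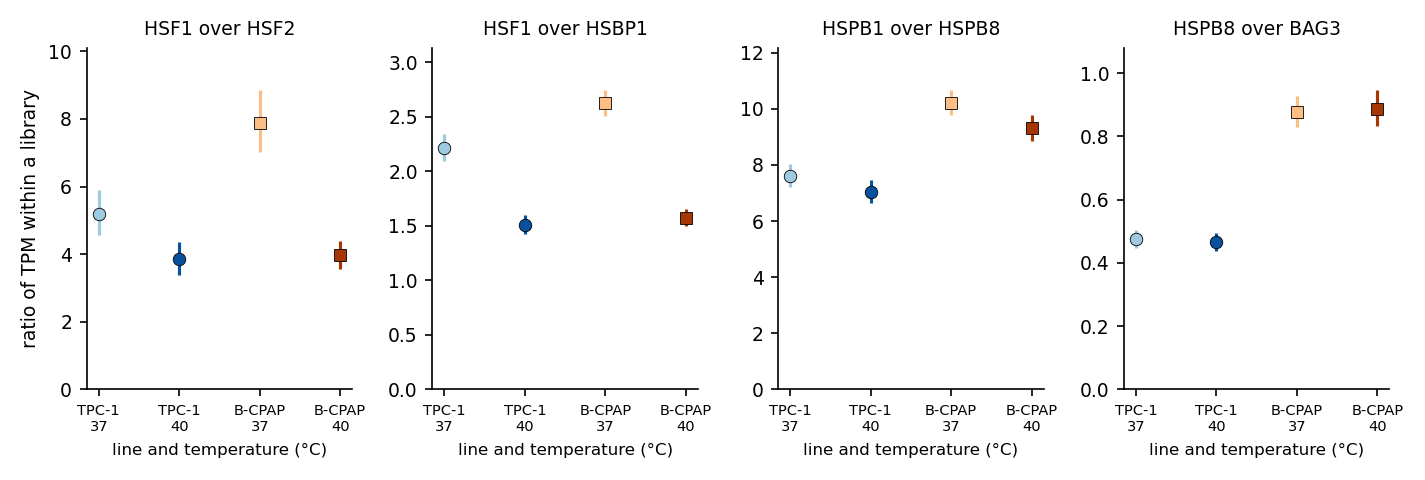
TPM ratio of 4 pairs of genes within each library (linear axes from 0), with bars for 95% counting intervals. HSF1 over HSF2 and HSF1 over HSBP1 are lower at 40 °C in both lines, whereas HSPB8 over BAG3 is 0.465 to 0.476 in TPC-1 and 0.877 to 0.888 in B-CPAP at both temperatures.

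Of 20 other heat shock factors and regulators of HSF1, 19 were tested and 0 were called between temperatures. In TPC-1, 4 were past the step upward at 40 °C and 0 downward, against backgrounds of 14.9% and 6.32% of tested genes. In B-CPAP 5 and 3 were, against 30.2% and 13.2%. The medians were 0.01 for TPC-1 and 0.16 for B-CPAP. Adjusted for the GC content of exons, as described below, 1 was past it upward and 0 downward in TPC-1, against 3 and 2 in B-CPAP, and the medians were -0.03 and 0.08. HSP90AA1, the inducible cytosolic HSP90 that holds HSF1 inactive, stood at 545.0 and 705.3 TPM in TPC-1, against 577.8 and 935.5 TPM in B-CPAP. Its TPM ratio was 1.29 (1.27 to 1.32) in TPC-1 against 1.62 (1.59 to 1.65) in B-CPAP, which went the other way from HSF1 in each line. NEDD4, a ubiquitin ligase that acts on HSF1, had ratios of 1.31 and 1.93. STUB1, the ubiquitin ligase CHIP, had ratios of 0.824 and 0.791, and PLK1, a kinase that phosphorylates HSF1, 0.816 and 0.798. HSF4, the factor of the lens, stood at 0.930 to 1.27 TPM, and HSF5 was listed at 0 in all libraries.

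HSPB1 (ENSG00000106211, chr7:76302544-76304295, plus strand), the small heat shock protein HSP27, stood at 721.5 and 635.3 TPM in TPC-1, against 1166 and 879.2 TPM in B-CPAP. Both libraries at 40 °C were below their 37 °C partner, and both B-CPAP libraries were above both TPC-1 libraries. The TPM ratio was 0.881 (0.849 to 0.913) for TPC-1 and 0.754 (0.734 to 0.774) for B-CPAP. Over both lines the log2 difference was -0.30 with an SE of 0.075 and a limma adjusted p of 0.218, lower in 2 of 2 lines, and the adjusted p was 0.0331 with genes of at least 5 TPM and 0.0160 with protein-coding genes. The processed pseudogene HSPB1P1 was listed at 0.646 to 4.06 TPM and HSPB1P2 at 0 to 1.27 TPM.

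HSPB8 (ENSG00000152137, chr12:119178642-119221131, plus strand), the small heat shock protein that works with BAG3, stood at 94.9 and 90.2 TPM in TPC-1, against 114.4 and 94.4 TPM in B-CPAP. The B-CPAP library at 37 °C was the high one and the other 3 lay close together. The ratio was 0.951 (0.886 to 1.02) in TPC-1, then 0.825 (0.777 to 0.877) in B-CPAP, and the limma adjusted p over both lines was 0.335, with a log2 difference of -0.17. CRYAB (ENSG00000109846, chr11:111908565-111923722, minus strand), the alpha-B-crystallin of lens and muscle, stood at 0.153 and 0.879 TPM in TPC-1, against 3.46 and 2.74 TPM in B-CPAP. These levels rest on 4 and 22 estimated reads in TPC-1 and on 112 and 83 in B-CPAP. CRYAB was higher at 40 °C in TPC-1, with a ratio of 5.76 and an interval of 1.96 to 23.0, and had a ratio of 0.790 (0.588 to 1.06) in B-CPAP, so it was the gene of the 9 with opposite directions in the lines. The limma adjusted p over both lines was 0.697, with a log2 difference of 0.22, and the difference between the lines' differences was not tested, since no residual is left for it. Its exons share 626 bases (20.6%) with HSPB2 on the opposite strand, and HSPB2 was listed at 0 in all libraries.

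Of the 7 other alpha-crystallin genes, HSPB3 was the one that passed the filter, at 0 TPM in both TPC-1 libraries and 4.54 and 5.05 TPM in B-CPAP (23 and 24 estimated reads). HSPB6 stood at 0.155 to 1.15 TPM, HSPB7 at 0 to 1.44 TPM and HSPB9 at 0 to 0.744 TPM. CRYAA and ODF1 were listed at 0 in every library. All 10 alpha-crystallin genes (HSPB1, HSPB8, CRYAB and these 7) summed to 817.7 and 727.3 TPM in TPC-1 and to 1290 and 983.7 TPM in B-CPAP. HSPB1 gave 87.4 to 90.4% of that sum and HSPB8 8.86 to 12.4%. The sum was lower at 40 °C in both lines, as HSPB1 was. Of 7 kinases in the pathway that phosphorylates small heat shock proteins, all were tested. In TPC-1 0 were past the step, against backgrounds of 14.9% of tested genes upward and 6.32% downward. In B-CPAP 1 was past it upward and 2 downward, against 30.2% and 13.2%. The lower ones were MAPKAPK3, with ratios of 0.881 and 0.787, and PRKD2, with 0.844 and 0.789, while PRKD3 was higher, with 1.18 and 1.58.

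BAG3 (ENSG00000151929, chr10:119651370-119677819, plus strand), the co-chaperone that links small heat shock proteins to HSP70, stood at 199.5 and 194.0 TPM in TPC-1, against 130.4 and 106.4 TPM in B-CPAP. It is a classical heat-inducible gene and was higher at 40 °C in neither line. The ratio was 0.973 (0.926 to 1.02) in TPC-1, where the direction turned under quantile normalization (log2 difference 0.02), under scaling without mitochondrial genes (0.01) and under GC adjustment (0.04). In B-CPAP it was 0.816 (0.770 to 0.865), and the limma adjusted p over both lines was 0.354, with a log2 difference of -0.17. The ratio of HSPB8 to BAG3 hardly differed between temperatures, at 0.476 (0.448 to 0.505) and 0.465 (0.437 to 0.495) in TPC-1, against 0.877 (0.830 to 0.927) and 0.888 (0.833 to 0.945) in B-CPAP. The 37 °C and 40 °C intervals overlapped within each line, and those of the lines did not overlap at either temperature.

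The 5 other BAG genes had medians of 0.07 for TPC-1 and 0.39 for B-CPAP. Past the step upward at 40 °C were 1 and 3 genes, against backgrounds of 14.9% and 30.2% of tested genes. Past it downward were 0, against 6.32% and 13.2%, and 0 were called by limma. BAG4, a partner of TNF receptors, stood at 12.2 and 17.8 TPM in TPC-1, against 13.9 and 18.8 TPM in B-CPAP, with ratios of 1.46 and 1.35. BAG2, which inhibits the ligase CHIP, had ratios of 1.27 and 1.54. Adjusted for GC content, the medians of the 5 turned to -0.03 and -0.07 and 0 genes were past the step in either line. The log2 differences of both in B-CPAP turned as well, to -0.07 for BAG4 and -0.01 for BAG2. BAG6, a chaperone for membrane proteins released in the cytosol, had ratios of 0.830 and 0.811, and BAG1 had 0.986 in both lines. Of 9 genes of BAG3-assisted autophagy, 8 were tested and 0 were past the step in TPC-1. In B-CPAP 1 was past it upward and 2 downward, against backgrounds of 30.2% and 13.2% of tested genes. The autophagy receptor SQSTM1 (p62) stood at 196.3 and 168.6 TPM in TPC-1, against 406.2 and 308.9 TPM in B-CPAP, with ratios of 0.859 and 0.761, and the LC3 gene MAP1LC3B had 1.11 in TPC-1 and an interval of 0.953 to 1.05 in B-CPAP.

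DEDD2 (ENSG00000160570, chr19:42198598-42220140, minus strand), a nuclear protein with a death effector domain, stood at 42.7 and 36.0 TPM in TPC-1, against 40.1 and 27.9 TPM in B-CPAP. It was lower at 40 °C in both lines, and the B-CPAP library at 40 °C stood apart below the other 3. The ratio was 0.843 (0.752 to 0.945) for TPC-1 and 0.697 (0.622 to 0.780) for B-CPAP, close to those of HSF1. Over both lines the log2 difference was -0.37 with an SE of 0.116, and the limma adjusted p was 0.227, and 0.0509 where protein-coding genes alone were fitted. Of 6 other genes with death effector domains, 0 were past the step in TPC-1, against backgrounds of 14.9% of tested genes upward and 6.32% downward. In B-CPAP 0 were past it upward, against 30.2%, and 1 downward, against 13.2%. That one was FADD, the adaptor of death receptors, with ratios of 0.878 and 0.772. CFLAR, the caspase-8 inhibitor FLIP, had 1.17 and 1.16, CASP8 had 1.06 and 1.23, and PEA15 had 0.936 and 0.846. With GC adjustment the log2 difference of CASP8 turned in both lines, to -0.11 and -0.19, and that of CFLAR turned in B-CPAP, to -0.03.

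HSPB11 (ENSG00000081870, chr1:53916574-53945929, minus strand) is now named IFT25 and, despite its older name, is no alpha-crystallin protein but a subunit of the intraflagellar transport B complex, which carries cargo along cilia. It stood at 7.10 and 9.63 TPM in TPC-1, against 18.1 and 25.2 TPM in B-CPAP. It was the gene of the 9 past the step upward in both lines, against a background of 7.69% of tested genes, while 0 of the 9 were past it downward in both, against 2.08%. The ratio was 1.36 (1.08 to 1.70) in TPC-1, then 1.39 (1.23 to 1.58) in B-CPAP, and the limma adjusted p over both lines was 0.223, with a log2 difference of 0.42 and an SE of 0.126. Adjusted for GC content its log2 differences were 0.22 and 0.01. Of 16 other genes of that complex, 3 were past the step upward in TPC-1 and 10 in B-CPAP, against backgrounds of 14.9% and 30.2% of tested genes. Past it downward were 0 in either, against 6.32% and 13.2%, and limma called 0 of the 16. Their medians were 0.11 and 0.36, and 0.02 and -0.05 once adjusted for GC content, with 0 then past the step upward for TPC-1, 3 for B-CPAP, and 1 downward for each. IFT27, the direct partner of IFT25, went the other way, at 10.1 and 8.08 TPM in TPC-1 and 8.37 and 6.92 TPM in B-CPAP, with ratios of 0.801 (0.698 to 0.918) and 0.828 (0.723 to 0.947). IFT57 had ratios of 1.39 and 1.72, IFT80 had 1.37 and 3.97 at levels of 0.606 to 5.13 TPM, and IFT46 had 0.852 and 0.868.

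Of 22 classical HSF1 targets, 20 were tested and 0 were called between temperatures. In TPC-1, 3 were past the step upward, and 9 were in B-CPAP, against backgrounds of 14.9% and 30.2% of tested genes. Past it downward were 0 in either, against 6.32% and 13.2%. The medians were 0.13 in both lines. Adjusted for GC content, 1 and 4 were past it upward, and the medians were -0.02 for TPC-1, where the direction turned, and 0.08 for B-CPAP. DNAJB4, an HSP40 co-chaperone, stood at 6.92 and 8.46 TPM in TPC-1, against 8.25 and 16.8 TPM in B-CPAP, with ratios of 1.22 (0.981 to 1.52) and 2.04 (1.73 to 2.40). DNAJB1, the main heat-inducible HSP40, had ratios of 0.890 (0.848 to 0.934) and 0.883 (0.855 to 0.913), and FKBP4, an HSP90 co-chaperone, 0.844 and 0.856. In TPC-1, 9 of the 20 targets were lower by any amount, and in B-CPAP 6 were, beside 6334 and 5987 of all 14912 tested genes.

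**Figure D4:**
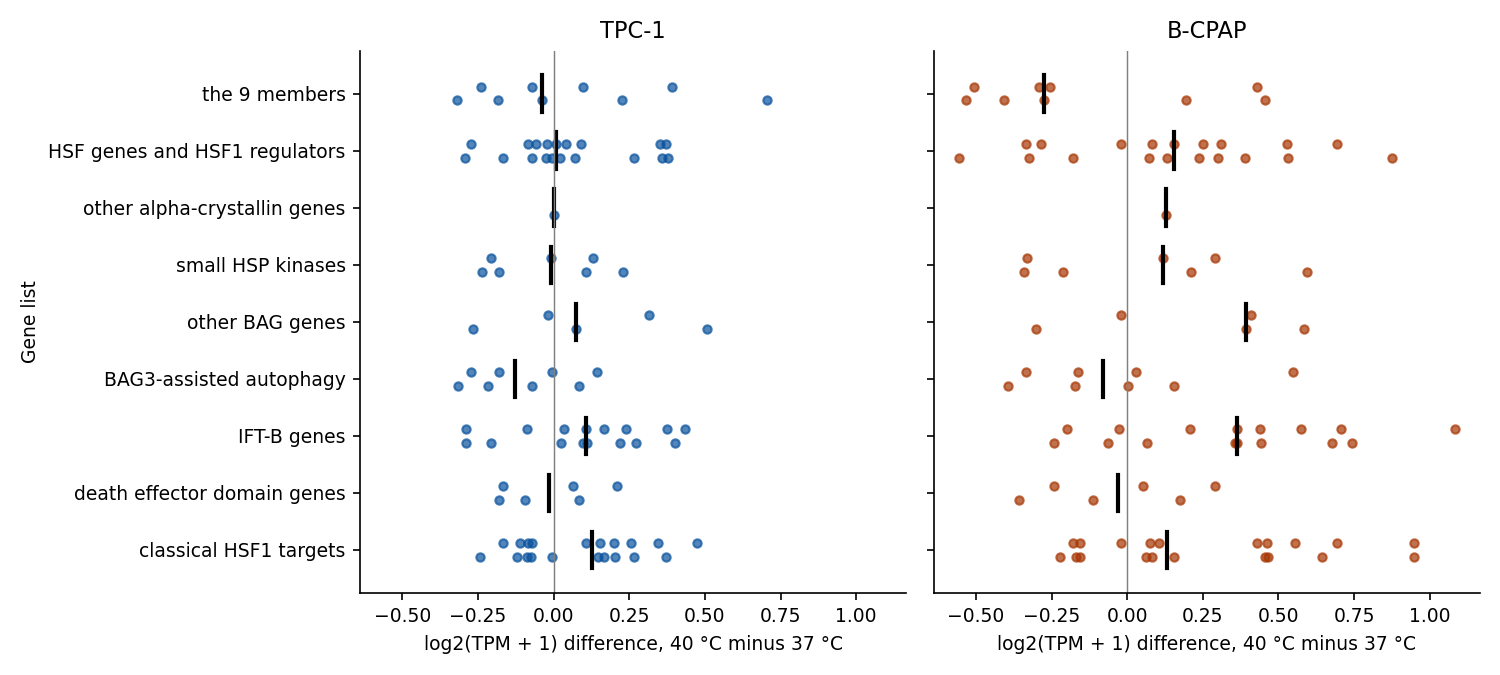
Log2(TPM + 1) difference between 40 °C and 37 °C of each tested gene (points) and its list median (vertical bars), in TPC-1 (left) and B-CPAP (right). The 9 genes have medians of -0.04 and -0.27, and the intraflagellar transport B genes 0.11 and 0.36.

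The differences of the 9 genes between temperatures followed the GC content of their exons, as did those of protein-coding genes in general. Across 11819 protein-coding genes, which share libraries and are not independent, the rank correlation of log2 difference with GC content (Spearman's rho) was -0.59 for TPC-1 and -0.81 for B-CPAP. Across the 9 genes rho was -0.73 and -0.95, and without CRYAB, the gene with the fewest reads, it was -0.88 and -0.95 over 8. HSF1, HSPB1 and DEDD2 have GC contents of 65.3%, 63.2% and 62.0% and were lower at 40 °C, while HSF2, HSPB11 and HSBP1 have 40.4%, 40.5% and 45.9% and were higher. Each difference was then taken against a lowess curve over protein-coding genes of the same GC content. The mean absolute difference of the 9 went from 0.25 to 0.18 in TPC-1 and from 0.37 to 0.15 in B-CPAP.

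After that adjustment HSF1 stayed on the lower side, at -0.16 in TPC-1 and -0.22 in B-CPAP, as did DEDD2, at -0.10 and -0.24, and HSPB8, at -0.09 and, just short of the step, -0.32. HSPB1 was left at -0.03 and -0.12. HSF2 turned to -0.08 for TPC-1 and -0.02 for B-CPAP, and HSBP1 was at 0.15 and -0.02. CRYAB alone of the 9 was past the step, in TPC-1 at 0.72, against a background of 16.3% of tested genes, and 0 were in B-CPAP, against 20.9%. After adjustment 0 of the kinases, autophagy genes and death effector genes listed above were past the step in either line. On adjusted values limma called 0 genes, with an adjusted p of 0.467 for HSF1 and 0.653 for HSPB1. Beyond these adjusted values, the part of GC content in the differences was not tested.

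**Figure D5:**
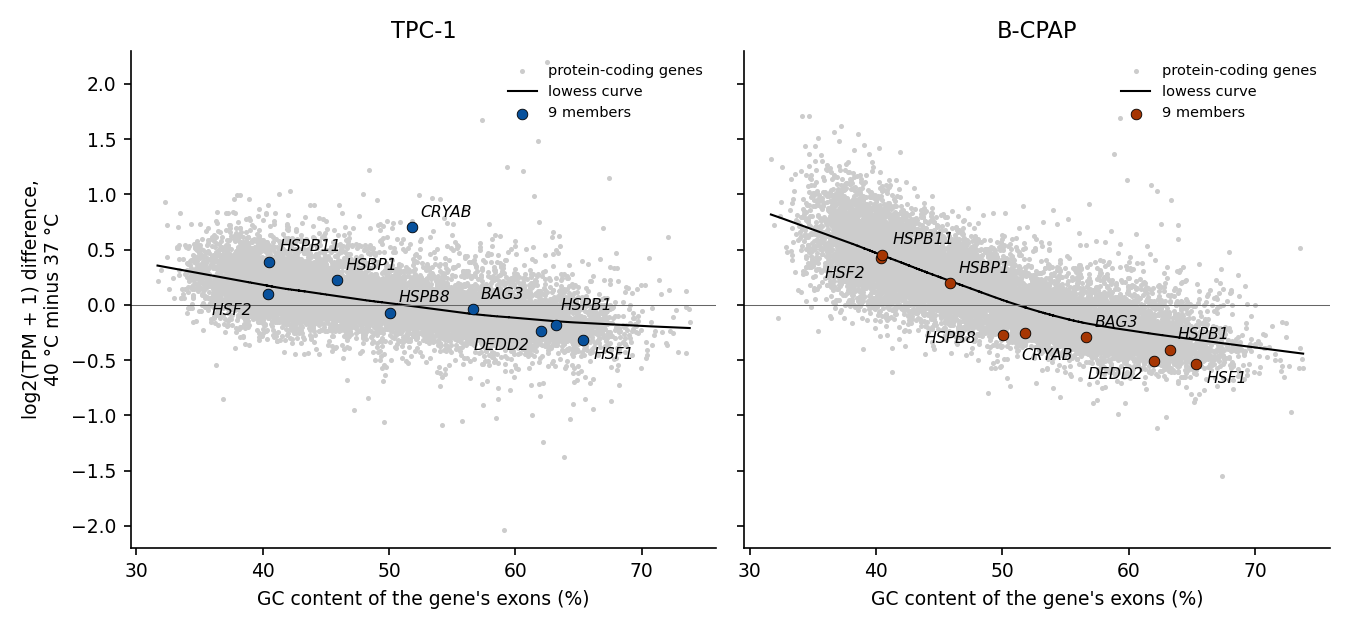
Log2(TPM + 1) difference between 40 °C and 37 °C against the GC content of the gene's exons in TPC-1 (left) and B-CPAP (right), with grey points for protein-coding genes, a black lowess curve and coloured points for the 9 genes. The 9 genes run from HSF2 and HSPB11 at the low-GC end down to HSF1 at 65.3%, and CRYAB in TPC-1 lies farthest above the curve.

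Between the lines, HSPB1, HSF1, HSPB11 and CRYAB were higher in B-CPAP and BAG3 was higher in TPC-1. With temperature as a block, limma called these 5 of the 9 genes, against a background of 62.7% of tested genes, 4 of them higher in B-CPAP against 29.9% and 1 lower against 32.8%. CRYAB passed the filter through its B-CPAP libraries alone and so had to differ, which leaves 4 of the other 8 genes. The share called is not above that among genes at large. For HSPB11 the TPM ratio of B-CPAP to TPC-1 was 2.55 (2.11 to 3.11) at 37 °C and 2.62 (2.21 to 3.11) at 40 °C, with a log2 difference of 1.27 and a limma adjusted p of 0.000891. For BAG3 it was 0.653 (0.621 to 0.688) and 0.548 (0.518 to 0.580), with -0.74 and 0.00196. HSPB1 had ratios of 1.62 (1.57 to 1.67) and 1.38 (1.34 to 1.43), with 0.58 and 0.00212, and HSF1 1.46 (1.39 to 1.53) and 1.26 (1.19 to 1.33), with 0.43 and 0.0128. CRYAB had 22.7 (8.62 to 84.7) and 3.12 (1.93 to 5.24), a description only, with a log2 difference of 1.47 and a limma adjusted p of 0.0115 that was lost with no filter on low values (0.0515). Of these 5 genes, the libraries of the 2 lines did not overlap for HSPB11, BAG3, HSPB1 or CRYAB, and those of HSBP1 did not either. For HSF1 the TPC-1 library at 37 °C and the B-CPAP library at 40 °C were level. The share of all tested genes without overlap was not counted, so no weight is placed on this. The summed level of the fibroblast markers given above differed between the lines as well, and its part in these differences was not tested.

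HSBP1 was higher in B-CPAP at both temperatures, with ratios of 1.23 (1.16 to 1.30) and 1.20 (1.14 to 1.26), and its limma adjusted p of 0.0523 did not pass. HSF2, HSPB8 and DEDD2 had limma adjusted p of 0.537, 0.175 and 0.152 between the lines, with log2 differences of 0.11, 0.17 and -0.22. Without the temperature term HSF1 was lost (limma adjusted p = 0.179). Leaving out any 1 library left a fit without that term on 3 libraries, in which limma called 0 of the 9 genes without TPC-1 at 37 °C, CRYAB without TPC-1 at 40 °C, and BAG3 without either B-CPAP library. The log2 difference of HSF1, 0.43 with all libraries, was 0.16 without B-CPAP at 37 °C, 0.27 without TPC-1 at 40 °C and 0.70 without B-CPAP at 40 °C, and that of HSPB1, 0.58 with all, was 0.38 without B-CPAP at 37 °C. Among the related lists, BAG1, which binds HSP70 and BCL2, stood at 6.01 and 5.92 TPM in TPC-1, against 30.5 and 30.1 TPM in B-CPAP, with a limma adjusted p of 0.00019. Of the 20 tested HSF1 targets, 15 were called higher in B-CPAP and 2 lower, against backgrounds of 29.9% and 32.8% of tested genes. Of the 7 kinases, 0 were called higher and 5 lower. Higher and lower counts were 5 and 5 of 19 HSF genes and HSF1 regulators, and 7 and 3 of 16 intraflagellar transport genes. They were 5 and 2 of 8 autophagy genes, 2 and 3 of 6 death effector genes, and 1 and 1 of 5 BAG genes. HSPB3, listed at 0 in TPC-1, passed the filter through its B-CPAP libraries alone and so had to differ. Its call as higher in B-CPAP is a description only.

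The genes whose levels most resembled those of 4 of the 9 over the 4 libraries were sought among 9393 protein-coding genes, by the Euclidean distance of centred log2(TPM + 1) values. Nearest to HSF1 were HSPBP1, which encodes an HSP70-binding protein, at a distance of 0.07, NDUFB7 at 0.07 and XAB2 at 0.08. HSPBP1 stood at 81.1 and 67.3 TPM in TPC-1, against 115.3 and 83.4 TPM in B-CPAP. Nearest to HSF2 were DOCK5, PTCD3 and C1D, all at 0.03. Nearest to HSPB1 were B4GALT2, INTS5 and MPDU1, all at 0.03, and to BAG3 KPTN at 0.03 and NME4 and ZBTB22 at 0.04. Each distance rests on 4 values and describes likeness of levels only.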

How the data were processed

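RNA was sequenced in 4 libraries. Per the labels' protocols, RNeasy Plus served for extraction and the TruSeq RNA kit (Library Prep, v2) for the libraries, which does not mark strand. Per the submitters' processing notes, the tools were MultiQC, FastQC, featureCounts 2.0.0 and Trimmomatic 0.38, with the build GRCh38. The aligner and annotation were not given in the sources used here. In 1 table the authors deposited TPM for 58884 Ensembl gene IDs. Of these, 58611 were found in GENCODE 29, which gave coordinates, exon lengths and GC contents.

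TPM times exon length moved in whole-read steps: 90.5 to 92.0% of values up to 20 reads, and 65.7 to 67.6% of those from there to 200, were whole to within 0.02 of a read. These steps gave the estimated depth and the exact (Clopper-Pearson) 95% intervals. The GENCODE 29 length gave whole reads for 6 of the 9 genes. For HSF1, HSPB1 and CRYAB the shortest length that did so, 5305, 1505 and 4333 bases, was used. Count tests were left out.

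The scale was log2(TPM + 1), which understates changes of low genes. limma 3.58.1 (R 4.3.3) was fitted to the genes whose mean reached 1 TPM, with an intensity trend, two-sided tests, Benjamini-Hochberg adjustment at 0.05 and 1 residual degree of freedom. In the temperature fit the p-values set a difference against how far the lines disagree about it. In the line fit they set it against how far the temperatures disagree. They do not measure a spread between cultures, and the labels do not say whether the libraries came from separate cultures. The fits were also run on simulated data with known changes, independent noise of the same spread in every gene and no GC trend. That run does not show how the fits behave where such a trend is present. The pairing is by cell line.

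The 9 genes and the 8 related lists were chosen with earlier results of these data known. Named from each list were the 2 tested genes highest and the 2 lowest by the mean of the lines' differences. Genes of like pattern were the 3 nearest to HSF1, HSF2, HSPB1 and BAG3 at a mean TPM of at least 5. HSF4 and HSF5, the small heat shock genes under the filter and the cell type markers were named for what they are, outside that rule; some markers are not reported here. Alternatives tried were other pseudocounts (0.1 and 5), other filters, 3 other scalings, an adjustment for GC content (lowess span 0.3), robust variance, no block, and each library left out.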

Additional observations from a re-analysis of the deposited data

Results flagged for a closer look

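CRYAB went opposite ways in the lines, with a log2(TPM + 1) difference of 0.70 for TPC-1 against -0.26 for B-CPAP, a gap of -0.96 that was not tested. Its level in TPC-1 rests on 4 and 22 estimated reads. LAMP2, a lysosomal membrane protein and one of the autophagy genes set beside BAG3, was also on opposite sides of 0, at 67.2 and 67.0 TPM in TPC-1 and 47.2 and 69.5 TPM in B-CPAP, where the TPM ratio was 1.47 (1.39 to 1.56). The gap between its log2 differences was 0.55 and was not tested, and its difference in TPC-1 was smaller than counting error, with a ratio of 0.997 (0.939 to 1.06). Adjusted for GC content the difference of LAMP2 was -0.26 for TPC-1 and -0.07 for B-CPAP.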

How the results depend on the processing

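With 1 library per group, no alternative can show the spread between cultures, and depth limits CRYAB and HSPB3. In TPC-1, where 2 genes were past the step upward, 0 were with a pseudocount of 5 and 1 with a mean TPM of at least 5, with centring on the median, with quantile normalization and with GC adjustment. Where 0 were past it downward, 1 was with a pseudocount of 0.1 and 2 with centring. In B-CPAP, 0 were past it upward with centring, quantile normalization and GC adjustment, against 2. Those past it downward went from 3 to 6 with centring and to 0 with GC adjustment. Centring moved the median of all genes by -0.09 in TPC-1 and by -0.18 in B-CPAP, and GC adjustment by -0.04 and -0.11. Genes with opposite directions went from 1 to 0 with a mean TPM of at least 5, to 2 with quantile normalization and without mitochondrial genes, and to 3 with GC adjustment. The filter at 5 TPM takes out CRYAB, at a mean of 1.81 TPM, so the counts under it lack that gene. Leaving out mitochondrial genes scales every other TPM up. The summed level of the 9 was then 1451 and 1370.5 TPM in TPC-1 and 2130 and 1705 TPM in B-CPAP, against 1207, 1098, 1661 and 1298. The causes of the other shifts were not tested.

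Between temperatures limma called 2 genes with a pseudocount of 5, 49 with centring, 867 with a mean TPM of at least 5 and 1350 of the protein-coding genes alone, against 0. It called 2 of the 9 under each of the last 2 settings and 0 under the others. Without the replicate block for the line it called 0 genes, and leaving out 1 library 0 to 0 genes and 0 to 0 of the 9. GC adjustment turned HSF2 to -0.050 over both lines (adjusted p = 0.855, limma) and in B-CPAP turned HSF2 to -0.024, BAG4 to -0.074, BAG2 to -0.013 and LAMP2 to -0.067. Between the lines, the fit without the replicate block for temperature called 3569 genes higher in B-CPAP, 3900 lower and 4 of the 9. Leaving out 1 library it called 2911 to 5719 genes and 0 to 1 of the 9. The other settings called 4 to 6 of the 9. With 1 library left out, the fit between temperatures had no line term, so differences between the lines entered its log2 difference. That log2 difference ran from -0.64 to 0.051 for HSPB1 and from -0.23 to 1.07 for HSPB11. It ran from -0.75 to 1.20 for CRYAB and from -0.60 to 0.27 for BAG3. HSPB11 itself was higher at 40 °C within both lines, at 0.39 and 0.45. These ranges therefore do not measure how steady a difference within a line was. For genes that kept their direction in these fits, the log2 difference ran from -0.70 (without TPC-1 at 37 °C) to -0.16 (without B-CPAP at 37 °C) for HSF1. It ran from -0.55 (without TPC-1 at 40 °C) to -0.20 (without B-CPAP at 40 °C) for DEDD2. For HSBP1 it ran from 0.064 (without TPC-1 at 37 °C) to 0.35 (without B-CPAP at 37 °C). It ran from 0.13 to 0.40 for HSF2 and from -0.31 to -0.040 for HSPB8. Between lines it ran from -0.11 to 0.32 for HSF2 and from -0.47 to 0.032 for DEDD2.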
